A study of Mus musculus with 6 samples.

Results

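The constitutive proteasome subunits are the gene products that make up the standard 26S proteasome. The 31 genes described here were taken by exact symbol from a table of 43283 genes, and all 31 were found. They comprise 7 genes of the outer (alpha) rings and 7 of the inner (beta) rings of the 20S core particle, 6 ATPases of the 19S regulatory particle and 11 of its non-ATPase subunits. RNA was sequenced from muscle stem cells of young C57BL/6 female mice, sorted from hindlimb muscle for α7-integrin and CD34 and against CD45, Sca1, CD31 and CD11b. The ages are given as 8 to 12 weeks in the protocol and as 2 to 4 months in the design text. The 3 Vehicle libraries came from cells cultured for 24 h with DMSO, and the 3 PGE2 libraries from cells cultured for 24 h with prostaglandin E2. The dose of PGE2 is not given in the labels. Both groups were kept in the same medium with fetal bovine serum, and each RNA sample came from 5000 to 10000 cells. No allele or transgene is named for either group. The replicates are called biological, but no source used here says that each is its own animal, sort or culture. The p-values below therefore set the groups against the spread between these libraries only, and part of that spread may be technical.

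The proteasome degrades proteins that carry ubiquitin chains. The ATPase ring unfolds a substrate and threads it through a gate in the alpha ring into the core, where 3 of the beta subunits cut it, and the non-ATPase subunits bind ubiquitin, remove it and hold the particle together. Every subunit is needed in a fixed ratio, and in mammals the genes are known to be raised together by the transcription factor NRF1 (Nfe2l1) when proteasome activity falls short. In muscle stem cells proteasome activity is known to be required for activation and survival, and in muscle fibres it carries much of the protein loss of atrophy.

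The 31 genes were expressed in every library, and none differed between PGE2 and Vehicle past the adjusted threshold. Values are TPM, the share of a library that a gene's transcripts take after correction for length. Mean levels over the 6 libraries ran from 16.8 TPM for Psmb3 to 418 TPM for Psma4, with a median of 63.2 TPM over the 31 genes and 9.72 TPM over the 12781 genes tested. The fitted log2 change (PGE2 minus Vehicle, on log2(TPM + 1)) was above 0 for 16 of the 31 genes and below 0 for 15, with a median of 0.02, against -0.07 over all tested genes. The number above 0 was 18 with median-ratio scaling, 17 with quantile normalization, 15 without mitochondrial genes (median -0.0039) and 9 with library weights (median -0.11). None of the 31 had an adjusted p under 0.05 in limma (Benjamini-Hochberg over all genes), and neither did any other gene (0.0% called). One gene, Psmd13, had an unadjusted p under 0.05 (1 of 31, where 3.63% of all tested genes had one, 1.57% with a higher value in PGE2). It was also the only one of the 31 whose groups did not overlap (1 of 31, where the groups did not overlap for 8.01% of all tested genes).

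**Figure D1:**
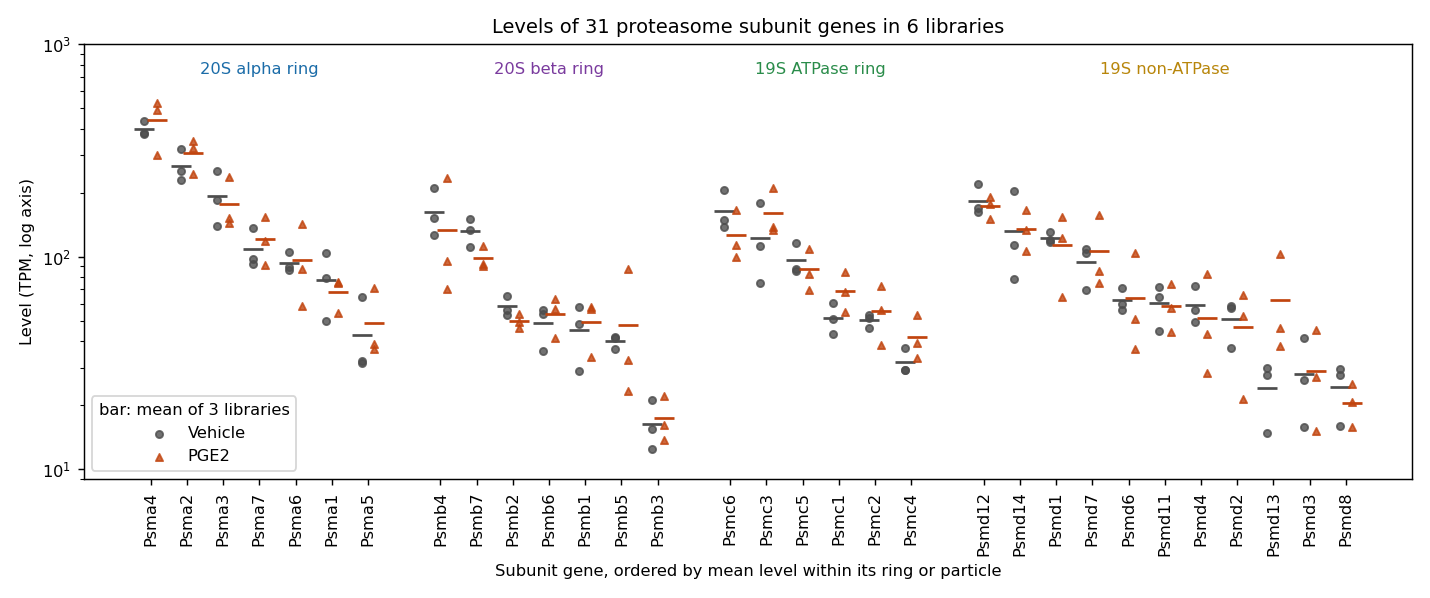
Level in TPM (log axis) of each of the 31 subunit genes in the 3 Vehicle libraries (grey circles) and the 3 PGE2 libraries (orange triangles), with horizontal bars for group means, ordered by mean level within each ring or particle. The groups overlap for every gene except Psmd13, and levels differ more between genes of a ring than between groups.

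In bulk RNA, fewer cells of a type and less RNA per cell cannot be told apart, and the depth behind each value is unknown because the table holds TPM only. The number of genes listed above 0 was 16446 to 19677 in Vehicle and 15400 to 17710 in PGE2, and mitochondrial genes held 20.9% to 33.6% and 23.0% to 30.4% of the TPM. All 12 stem cell and myoblast markers reached 1 TPM in at least 1 library, and Chodl and Cdh15 were listed at 0 in Vehicle 3. The 12 markers summed to 787 to 989 TPM with vehicle and 682 to 981 TPM with PGE2. The genes sorted for, Itga7 and Cd34, reached at least 2.69 and 12.4 TPM in every library. Those sorted against, Ptprc (CD45), Ly6a (Sca1), Pecam1 (CD31) and Itgam (CD11b), read at most 4.81, 13.6, 1.55 and 2.44 TPM. Ly6a and Ptprc in PGE2 2, and Ptprc in PGE2 3, stood above Itga7 in the same library. Summed markers of leukocytes (8 genes, 2.66 to 11.1 and 7.38 to 10.9 TPM), endothelial cells (6 genes, 4.16 to 7.42 and 6.90 to 19.9 TPM), pericytes and smooth muscle (5 genes, 6.37 to 15.4 and 9.55 to 11.8 TPM) and glia (4 genes, 2.89 to 4.71 and 2.14 to 9.01 TPM) were low. In PGE2 3 the endothelial sum was mostly Emcn, at 15.3 TPM, above Itga7 (4.18 TPM) and Cd34 (13.1 TPM) there. Emcn read 0.15 to 0.87 TPM in the other libraries. Fibro-adipogenic markers (6 genes) summed to 18.7 to 31.5 TPM with vehicle and 37.5 to 45.9 TPM with PGE2, and markers of differentiated muscle (6 genes) to 24.5 to 51.1 and 7.09 to 14.3 TPM. Neither of these sums overlapped between the groups. In the fibro-adipogenic list this rested in part on single values. Ly6a read 13.6 TPM in PGE2 2 and was listed at 0 in PGE2 1 and PGE2 3, and Col1a1 read 14.4 TPM in PGE2 3. The most abundant gene of that list, Col3a1, overlapped, at 15.3 to 28.1 TPM with vehicle and 24.9 to 36.5 TPM with PGE2. Ttn held most of the differentiated muscle sum in every library, at 14.1 to 44.2 TPM with vehicle and 4.90 to 10.8 TPM with PGE2. The part of the fibro-adipogenic and differentiated muscle lists in the values below was not tested.

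Promoters of proteasome genes are the place where NRF1 acts, through the antioxidant response element. The RefSeq table of promoters (GRCm38.p6, 250 bases before to 50 after each annotated start) held 25 of the 31 genes. The letters TGACNNNGC of this element were searched on both strands and found for 4 of the 25 (16%), and for 14.0% of all 27025 genes in the table. The 4 stretches are shown because they hold these letters. Each ends upstream of the annotated transcript starts, and capitals mark the element and any TGACG, the core of the cAMP response element, which can lie inside it.

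Psmb5 (chr14:54618025-54618145, minus strand): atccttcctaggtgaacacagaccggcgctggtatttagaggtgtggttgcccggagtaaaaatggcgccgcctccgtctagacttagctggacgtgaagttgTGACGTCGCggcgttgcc
Psmb6 (chr11:70525237-70525356, plus strand): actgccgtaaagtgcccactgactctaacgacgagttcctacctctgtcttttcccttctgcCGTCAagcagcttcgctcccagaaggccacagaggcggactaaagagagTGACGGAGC
Psmc6 (chr14:45329574-45329693, plus strand): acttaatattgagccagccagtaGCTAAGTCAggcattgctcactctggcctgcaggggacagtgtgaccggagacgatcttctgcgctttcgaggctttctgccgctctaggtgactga
Psmd12 (chr11:107479278-107479397, plus strand): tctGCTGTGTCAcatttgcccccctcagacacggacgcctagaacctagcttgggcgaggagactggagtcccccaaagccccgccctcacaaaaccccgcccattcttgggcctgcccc

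In Psmb5 and Psmb6 the element lay close to the start (bases -47 to -39 and -9 to -1, counted back from the base before the start), and in Psmc6 and Psmd12 far upstream (-227 to -219 and -247 to -239, on the other strand). Both matches near a start also hold TGACG. That core was present for 13 of the 25 genes (52%) and for 23.0% of all genes, the full cAMP response element TGACGTCA for 0 of 25 and 2.03%, the CCAAT box (CCAAT) for 10 of 25 (40%) and 41.1%, and the GC box (CCGCCC) for 15 of 25 (60%) and 38.2%. The shares over all genes are not matched for level or base composition. These are matches of letters in these windows and say nothing of binding. The 4 genes with the antioxidant response element had log2 changes of 0.02 (Psmb5), 0.15 (Psmb6), -0.39 (Psmc6) and -0.08 (Psmd12), within the range of the other subunits.

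The 7 alpha subunits form the outer rings of the core and its gate, and their summed level was the highest of the 4 parts of the proteasome. It was 1346, 1182 and 1011 TPM in the Vehicle libraries, replicates 1 to 3, against 1104, 1438 and 1231 TPM in the PGE2 libraries (values per library stand in this order throughout). The groups overlapped, and 4 of 7 genes had a higher and 3 a lower fitted value with PGE2 (median log2 change 0.11). The number higher was 7 without Vehicle 1 and 2 with library weights, where the median was -0.094, and the median was below 0 also without PGE2 1 or PGE2 2. The changes ran from -0.14 for Psma1 to 0.20 for Psma5, and none had an unadjusted limma p under 0.05.

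Psma4 (ENSMUSG00000032301, mm10 chromosome 9, 54950790 to 54958030, plus strand), which encodes the alpha3 subunit whose tail helps to close the gate, was the highest of the 31 genes as listed, leaving aside the copies of Psma3 described below. It read 433, 376 and 383 TPM with vehicle and 299.7, 528 and 491 TPM with PGE2. The lowest and the highest value were both in PGE2 libraries, and the log2 change was 0.11 ± 0.31 (SE). Psma2, the alpha2 subunit, read 322, 253 and 229 TPM with vehicle and 244, 350.01 and 326 TPM with PGE2, and ranked second in both groups. Psma7, the alpha4 subunit, read 97.7, 136 and 92.1 TPM with vehicle and 153, 118 and 91.1 TPM with PGE2. Psma1 and Psma6, the alpha6 and alpha1 subunits, stayed between 49.5 and 142 TPM.

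Psma3 and Psma5, the alpha7 and alpha5 subunits, have processed copies elsewhere in the genome that the table lists as genes of their own. A transcript from such a copy, or a read from the gene that the authors' estimate gave to it, cannot be told from the gene where the sequences are identical. Gm13835 (chromosome 6, 31141979 to 31142663, minus strand) matches Psma3 (chromosome 12, 70974621 to 70996347, plus strand) without a mismatch over its full 685 bases. For Psma5 (chromosome 3, 108256926 to 108279974, plus strand), Gm12989 on chromosome 4 has 7 mismatches in 720 aligned coding bases and Gm8394 on chromosome 10 has 8 in 723. The coding stretches below, from GENCODE M21 transcripts, show how little separates them: coding bases 104 to 163 of Psma3, and coding bases 269 to 328 of Psma5, the 60 bases where its copies differ most, with the differing positions in capitals.

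Psma3: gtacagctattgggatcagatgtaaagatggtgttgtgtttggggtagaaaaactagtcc
Gm13835: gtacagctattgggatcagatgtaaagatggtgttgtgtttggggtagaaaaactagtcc
Psma5: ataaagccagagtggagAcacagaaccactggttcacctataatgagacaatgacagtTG
Gm12989: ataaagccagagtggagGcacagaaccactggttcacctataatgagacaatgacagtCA
Gm8394: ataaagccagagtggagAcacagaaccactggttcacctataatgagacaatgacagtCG

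Psma3 read 252, 184 and 140 TPM with vehicle and 152, 237 and 144 TPM with PGE2. Gm13835 was listed higher than Psma3 in every library, at 691, 407 and 249 TPM with vehicle and 491, 426 and 377 TPM with PGE2. With its listed copies added, Psma3 stood above the listed Psma4 in each library, and reached 943, 593 and 388 TPM with vehicle and 643, 663 and 524 TPM with PGE2, and its log2 change went from -0.11 to 0.01. The level of Psma3 itself is therefore uncertain, while neither value passed the test. Psma5 read 32.4, 64.6 and 31.4 TPM with vehicle and 38.9, 70.8 and 36.7 TPM with PGE2, the lowest mean of the alpha genes. With both copies it reached 63.8, 119 and 81.6 TPM with vehicle and 88.6, 114 and 91.9 TPM with PGE2, with a log2 change of 0.19 in place of 0.20. Vehicle 2 and PGE2 2 were the high libraries for Psma5, with or without the copies.

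**Figure D2:**
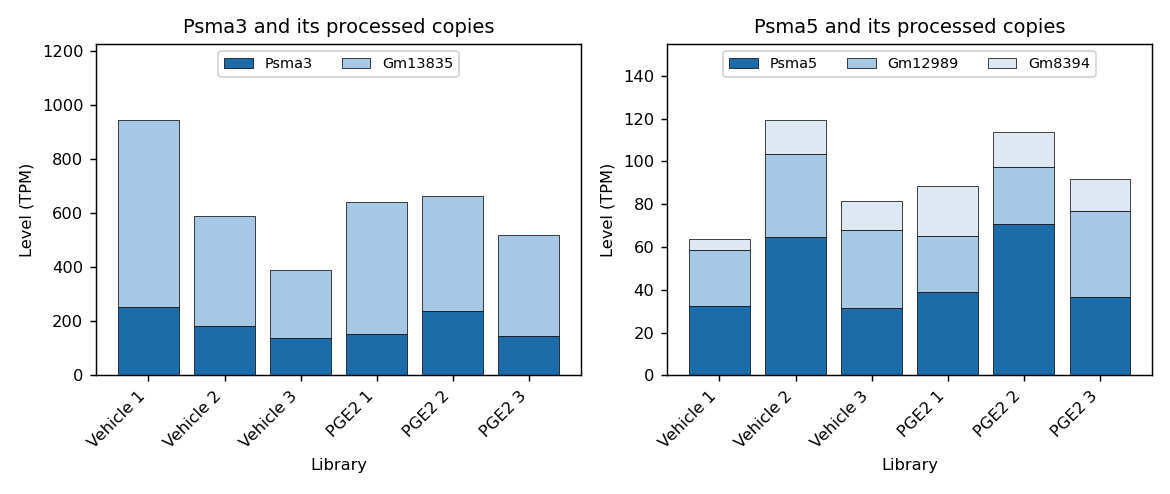
Stacked level in TPM of Psma3 with Gm13835 (left) and of Psma5 with Gm12989 and Gm8394 (right) in each of the 6 libraries. Gm13835 holds more of the stack than Psma3 in every library, and the summed heights of the groups overlap.

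Leaving out genes that overlap the subunit gene's own locus, 9 of the 31 genes had at least one other annotated gene that matched with 95% identity or more over 200 bases or more, and for 7 of them such copies (10 in total) were in the table. The exclusion touched Psmd1, which matches the overlapping Gm21972 at 100% over 305 bases (listed at 0 to 2.77 TPM). Psma3 and Psma5 were the genes where copies weighed most, at 239% and 103% of the gene's own mean. For Psmb3 (20.3%), Psmc1 (15.8%), Psmd11 (13.1%), Psmd2 (10.7%) and Psma4 (3.50%) the copies held less. Psmb3 turned from a log2 change of 0.08 to -0.15 with its copies added, and none of the 7 passed the test in either form (limma, Benjamini-Hochberg adjusted p = 1.00 each).

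The 7 beta subunits form the inner rings, and 3 of them carry the catalytic sites. Their summed level was 565, 494 and 449.5 TPM with vehicle and 449.7, 554 and 344 TPM with PGE2. Of the 7 genes, 4 had a higher and 3 a lower fitted value (median log2 change 0.02, range -0.45 to 0.15), and none had an unadjusted limma p under 0.05. With library weights or without Vehicle 1, 2 were higher, and the median was between -0.15 and 0 in these, without mitochondrial genes and without any 1 library other than PGE2 3. With processed copies added, 3 were higher and the median was -0.152.

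Psmb5 (ENSMUSG00000022193, chromosome 14, 54614119 to 54618022, minus strand) encodes the chymotrypsin-like site, the target of the drug bortezomib. It read 41.98, 36.9 and 41.4 TPM with vehicle and 87.5, 32.6 and 23.4 TPM with PGE2. The Vehicle libraries lay within 1.14-fold of each other and the PGE2 libraries within 3.73-fold, with PGE2 1 above and the other 2 PGE2 libraries below all Vehicle libraries. The log2 change of 0.02 ± 0.46 (SE) averages these. It was -0.52 without PGE2 1 and 0.41 without PGE2 3.

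Psmb6 (ENSMUSG00000018286, chromosome 11, 70525367 to 70527858, plus strand), the caspase-like site, read 35.9, 53.9 and 55.8 TPM with vehicle and 56.5, 63.3 and 41.5 TPM with PGE2. Its log2 change was 0.15 (95% confidence interval -0.58 to 0.89). Psmb7 (ENSMUSG00000026750, chromosome 2, 38588036 to 38644087, minus strand), the trypsin-like site, read 151, 134 and 111 TPM with vehicle and 112, 92.4 and 90.1 TPM with PGE2. The groups met only at their edges, PGE2 1 standing just above Vehicle 3. Psmb7 had the smallest p of the beta genes, with a log2 change of -0.42 (-1.04 to 0.21) and a limma p of 0.167 before adjustment. It shares 405 exonic bases with Nek6 on the opposite strand, which read 4.22 to 12.4 TPM, and no source used here says whether the counting used strand. The 3 catalytic genes thus did not share a direction, and none passed the test.

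Psmb4, the beta7 subunit that locks the half-proteasomes together, had the lowest fitted change of the 31. It read 209.8, 153 and 126 TPM with vehicle and 70.6, 234 and 95.7 TPM with PGE2, a log2 change of -0.45 (-1.42 to 0.53) that rested on PGE2 1 and PGE2 3. Without PGE2 2 it was -0.95, with an unadjusted limma p of 0.0244. PGE2 2 held the highest Psmb4 value of all 6 libraries, and PGE2 1, which had the highest Psmb5, held the lowest. Psmb2, the beta4 subunit, had the smallest pooled within-group SD of log2(TPM + 1) of the 31 genes, at 0.13. It read 56.3, 53.3 and 65.4 TPM with vehicle and 49.4, 53.7 and 46.3 TPM with PGE2, a log2 change of -0.22 (-0.86 to 0.42). Psmb3, the beta3 subunit and the lowest of the 31, read 12.5, 15.5 and 21.1 TPM with vehicle and 16.1, 22.2 and 13.6 TPM with PGE2. Psmb1, the beta6 subunit, stayed between 28.9 and 57.95 TPM.

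**Figure D3:**
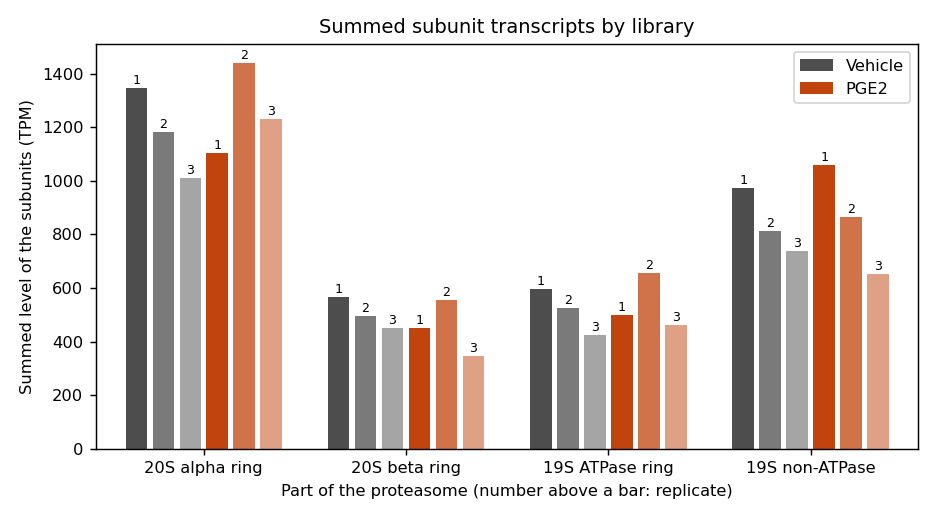
Summed level in TPM of the alpha, beta, ATPase and non-ATPase subunit genes in each library (bars numbered by replicate, grey for Vehicle and orange for PGE2). PGE2 2 has the highest alpha and ATPase sums, PGE2 1 the highest non-ATPase sum and PGE2 3 the lowest beta and non-ATPase sums of the 6 libraries.

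The 6 ATPases form the ring that unfolds substrates and opens the gate. They summed to 595, 526 and 425 TPM with vehicle and 501, 656 and 462 TPM with PGE2. Of the 6, 4 had a higher and 2 a lower fitted value, with a median log2 change of 0.23. The median was 0.14 without Vehicle 3 and 0.12 with library weights, and the split was 3 and 3 with library weights or without PGE2 1. None had an unadjusted limma p under 0.05.

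Psmc3, the Rpt5 ATPase, read 179, 112 and 75.1 TPM with vehicle and 138, 209.2 and 134 TPM with PGE2. Its log2 change of 0.45 (-0.37 to 1.27) was 0.15 without Vehicle 3 and 0.77 without Vehicle 1, and Vehicle 1 lay above 2 of the 3 PGE2 libraries. Psmc3 shares 215 exonic bases with Slc39a13 on the opposite strand, which read 9.78 to 35.4 TPM. Psmc1, the Rpt2 ATPase, whose tail docks into the core to open it, read 50.7, 60.4 and 43.2 TPM with vehicle and 67.9, 84.2 and 54.7 TPM with PGE2. Only PGE2 3 fell within the Vehicle range, and the log2 change was 0.41 (-0.29 to 1.10). Psmc4, the Rpt3 ATPase and the lowest of the ring, read 29.3, 36.95 and 29.4 TPM with vehicle and 39.3, 33.3 and 53.1 TPM with PGE2. It was the 1 gene of the 31 with its highest PGE2 value in PGE2 3.

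In the other direction, Psmc6, the Rpt4 ATPase and the highest of the ring, read 205, 148 and 138 TPM with vehicle and 113, 165 and 99.8 TPM with PGE2, a log2 change of -0.39 (-1.08 to 0.31). Psmc2 (Rpt1) and Psmc5 (Rpt6) had log2 changes of 0.10 and -0.15. The genes of one hexamer thus had fitted values on both sides of 0, each with an interval that included 0.

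The non-ATPase subunits summed to 971, 814 and 739 TPM with vehicle and 1058, 864 and 653 TPM with PGE2. Of the 11 genes, 4 had a higher and 7 a lower fitted value (median log2 change -0.08). This split rested on single libraries: 9 were higher without PGE2 3 (median 0.23), 6 without Vehicle 1 (median 0.0011), and 2 without Vehicle 3 or with library weights.

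Psmd13 (ENSMUSG00000025487, chromosome 7, 140881968 to 140898643, plus strand) encodes Rpn9, a scaffold of the lid that helps to hold the ubiquitin receptor Rpn10. It read 29.9, 14.8 and 27.6 TPM with vehicle and 46.2, 102 and 37.9 TPM with PGE2. Every PGE2 library lay above every Vehicle library, and PGE2 2 lay far above the rest. Means were 24.1 ± 8.14 TPM with vehicle and 62.2 ± 35.1 TPM with PGE2 (SD, n = 3 each). The log2 change was 1.26 (95% confidence interval 0.26 to 2.25), or 2.39-fold when log2(TPM + 1) is turned back. Its limma p was 0.0186 before and 1.00 after Benjamini-Hochberg adjustment over all genes, so the difference did not pass the test. The adjusted p was between 0.583 and 1.00 over the 18 alternatives, and the value was higher in 3 of 3 PGE2 libraries. Its rank by level among the 31 went from 30 in Vehicle to 18 in PGE2, while no other gene moved by more than 6 places.

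The unadjusted p of Psmd13 was 0.0848 without Vehicle 2, its lowest library, and 0.0798 without PGE2 2, its highest, where the log2 change was 0.83. Psmd13 shares 342 exonic bases with Sirt3 on the opposite strand, which was listed at 0 to 1.23 TPM. A processed pseudogene on the same strand, Gm15542, lies inside the Psmd13 locus without sharing an exonic base. It was listed at 525 to 796 TPM with vehicle and 530.02 to 977 TPM with PGE2, with its highest value in PGE2 1 and not in PGE2 2. No copy of Psmd13 itself met the identity limit.

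The subunits that bind or cut ubiquitin chains had smaller fitted changes than Psmd13, each with an interval that included 0; the differences from Psmd13 were not tested. Psmd4, the ubiquitin receptor Rpn10, read 72.8, 56.2 and 49.1 TPM with vehicle and 83.04, 43.4 and 28.4 TPM with PGE2, a log2 change of -0.32 (-1.23 to 0.60). Psmd14, the deubiquitinase Rpn11 that strips chains from substrates, had a log2 change of 0.12 (-0.73 to 0.97), with Vehicle libraries between 78.2 and 204 TPM. Psmd7, its inactive partner Rpn8, had one of 0.11 (-0.68 to 0.91). The large toroid subunits Psmd1 and Psmd2, of which Psmd2 binds shuttle factors, had log2 changes of -0.20 and -0.24. Psmd1 read 131, 120 and 117 TPM with vehicle and 153, 64.5 and 123 TPM with PGE2, so that 1 library, PGE2 2, stood apart. Psmd2 was lowest in PGE2 3, at 21.4 TPM.

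Of the remaining lid scaffolds, Psmd12 (Rpn5) was the most abundant non-ATPase gene. It read 219, 169 and 161 TPM with vehicle and 190.3, 177 and 149.6 TPM with PGE2, a log2 change of -0.08 (-0.70 to 0.54). Psmd3 (Rpn3) had the largest pooled within-group SD of log2(TPM + 1) of the 31 genes, at 0.72. It read 41.6, 26.3 and 15.8 TPM with vehicle and 27.1, 45.2 and 15.1 TPM with PGE2. Psmd8 (Rpn12), the lowest non-ATPase gene, read 15.95, 27.7 and 29.7 TPM with vehicle and 25.3, 20.6 and 15.8 TPM with PGE2. Psmd6 (Rpn7) and Psmd11 (Rpn6) had log2 changes of -0.10 and -0.05.

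**Figure D4:**
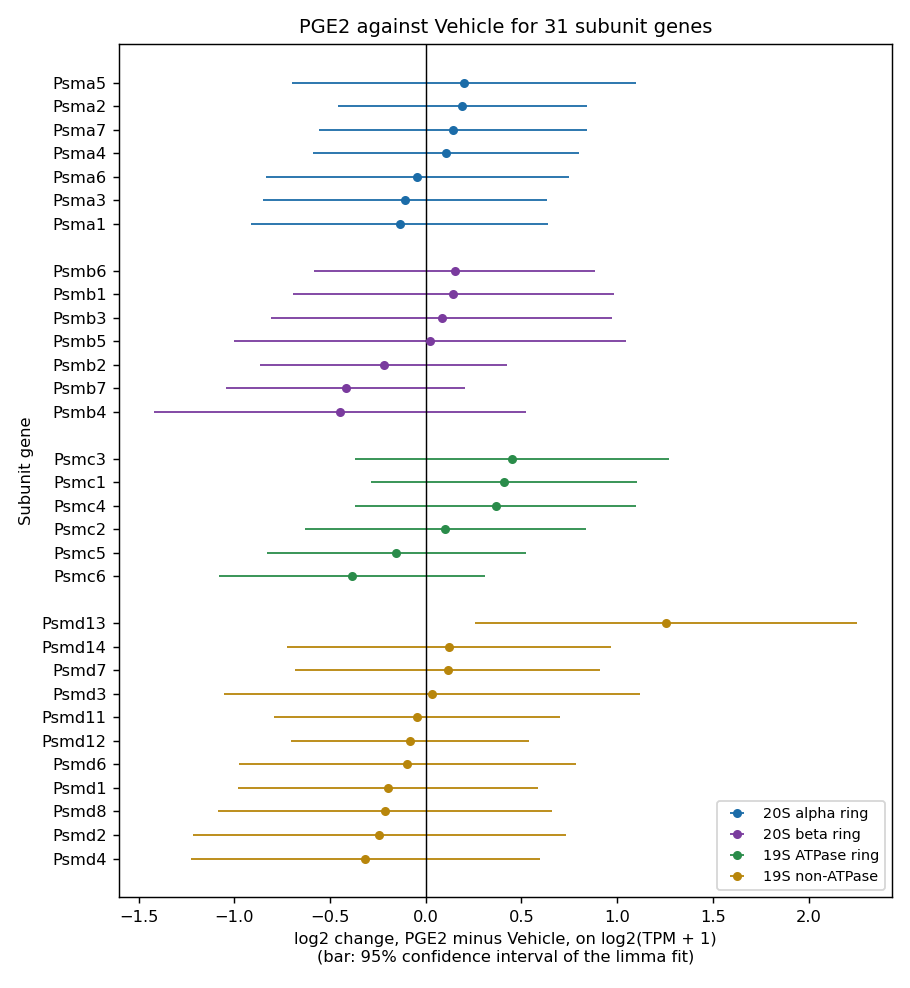
Fitted log2 change (PGE2 minus Vehicle, on log2(TPM + 1)) of the 31 subunit genes with 95% confidence intervals of the limma fit, grouped by part of the proteasome. All intervals include 0 except that of Psmd13, at 0.26 to 2.25.

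How far these data limit a difference can be read from the intervals. For 18 of the 31 genes (58.1%) the 95% confidence interval lay between -1 and 1, which leaves out a doubling or halving, against 13.3% of all tested genes and 34.5% of the 4490 tested genes with a mean level in the same range. This held for 6 of 7 alpha, 4 of 7 beta, 2 of 6 ATPase and 6 of 11 non-ATPase genes. The median half-width was 0.78 on the log2 scale, a 1.72-fold difference. It was 1.21 over all tested genes and 0.86 over those in the same range of levels. These widths are for one gene before adjustment. A change has to be larger than them to pass the adjusted threshold. The fitted change was between -0.5 and 0.5 for 30 of the 31 genes (96.8%). This held for 67.5% of all tested genes and 80.6% of those in the same range of levels.

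Levels differed far more between subunits than between groups. The highest mean was 24.9 times the lowest over the 31 genes. The ratio was 9.14 within the alpha genes, 8.80 within the beta genes, 3.93 within the ATPases and 7.89 within the non-ATPase genes. Yet each of these parts holds its own subunits in equal numbers. These ratios are of the genes as listed, without their processed copies. The copies held 239% of the gene's own mean for Psma3 and 103% for Psma5, the lowest alpha gene. TPM corrects for length, and other effects of the cDNA amplification on these levels were not tested. Across the 31 genes, Spearman's rho was 0.94 between the group means, 0.88 to 0.94 between Vehicle libraries, 0.65 to 0.88 between PGE2 libraries and 0.77 to 0.89 between libraries of different groups (a description across genes, which are not independent replicates). Psma4, Psma2, Psma3 and Psmd12 were the highest 4 in both groups as listed, in that order, and Psmb3 the lowest. Neighbours further down, such as Psmc6, Psmc3 and Psmd14 (145, 141 and 133 TPM), lay within each other's spread.

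The 31 genes together held 0.442%, 0.423% and 0.397% of the TPM outside mitochondrial genes in Vehicle and 0.407%, 0.475% and 0.389% in PGE2, so the groups overlapped. The libraries of a group differed in which part of the proteasome was high. In PGE2 1, 8 of the 11 non-ATPase genes had their highest PGE2 value, and in PGE2 2, 5 of 7 alpha, 4 of 7 beta and 4 of 6 ATPase genes did. PGE2 1 was the highest PGE2 library for 48.4% of all tested genes and PGE2 2 for 28.6%. PGE2 3 was the highest PGE2 library for 1 of the 31 genes and the lowest for 24, where it was the highest for 23.0% and the lowest for 38.2% of all tested genes. The ratio of the summed core particle to the summed regulatory particle genes was 1.22, 1.25 and 1.26 in Vehicle and 0.996, 1.31 and 1.41 in PGE2. Among Vehicle libraries, Vehicle 1 was the highest for 18 genes and Vehicle 3 the lowest for 18 (36.8% and 38.1% of all tested genes). The mitochondrial share was 20.9% in Vehicle 1 and 33.6% in Vehicle 3. The summed level of the 31 genes was 3477, 3017 and 2623 TPM in the Vehicle libraries, and as a share of the TPM outside mitochondrial genes (above) the libraries kept that order with a smaller gap.

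The spread was wider in PGE2. The median SD of log2(TPM + 1) over the 31 genes was 0.30 in Vehicle and 0.38 in PGE2, against 0.43 and 0.66 over all tested genes and 0.31 and 0.51 over those in the same range of levels. It was larger in PGE2 for 19 of the 31 (61.3%) and for 69.5% of all tested genes. The difference in spread was not tested. The non-ATPase genes had medians of 0.35 and 0.64, the alpha genes of 0.30 and 0.39, the ATPases of 0.24 and 0.35, and the beta genes of 0.35 and 0.34.

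**Figure D5:**
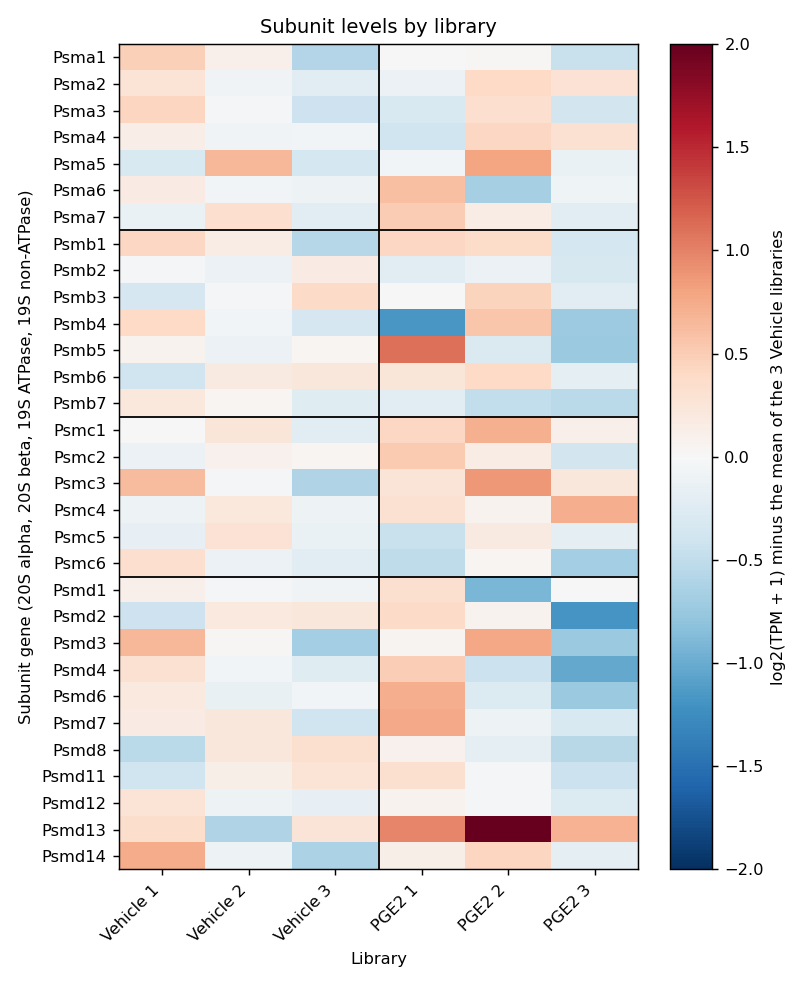
Difference of log2(TPM + 1) from the mean of the 3 Vehicle libraries for each subunit gene (rows) in each library (columns), red for higher and blue for lower. Psmd13 is above 0 in all 3 PGE2 columns, Psmb5 and Psmb4 take opposite signs in PGE2 1, and the PGE2 3 column is mostly blue.

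Genes that build, cap, feed or control the proteasome were drawn from 10 lists of 69 genes, with 68 of the symbols found in the table and 62 genes tested. None passed limma's test, 2 of 62 had an unadjusted p under 0.05 (3.23%), and the groups did not overlap for 6 (9.68%), shares near the 3.63% and 8.01% of all tested genes. Of the 2, 1 was higher and 1 lower (1.57% and 2.06% of all tested genes), and of the 6, 2 were higher and 4 lower (3.18% and 4.84%).

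The further regulatory particle subunits, the ubiquitin receptor Adrm1 and the small subunit Sem1 (Shfm1 in the table), both had a higher fitted value (1 of 2 with library weights, without PGE2 1 or without Vehicle 3). Adrm1 read 30.8, 24.4 and 9.92 TPM with vehicle and 31.4, 19.3 and 19.8 TPM with PGE2, and Shfm1 26.4, 15.4 and 9.58 TPM with vehicle and 15.8, 26.2 and 20.8 TPM with PGE2. The catalytic subunits that replace the standard ones in immune cells, which interferon is known to induce, were near 0 apart from Psmb10. Psmb8 read 0.58, 0.19 and 0.56 TPM with vehicle and was listed at 0 in PGE2, and Psmb9 was above 0 in Vehicle 2 (0.82 TPM) and PGE2 1 (1.85 TPM) only. Psmb10 read 11.1, 4.43 and 8.61 TPM with vehicle and 4.15, 7.89 and 5.51 TPM with PGE2. The thymus subunit Psmb11 and the testis subunit Psma8 stayed at or below 0.62 TPM. The standard catalytic genes Psmb5, Psmb6 and Psmb7 thus stood above their immune counterparts in every library.

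Among the caps, Psme4, which encodes the activator PA200, read 84.6, 116 and 104 TPM with vehicle and 45.04, 61.7 and 78.7 TPM with PGE2. Every PGE2 library lay below every Vehicle library, with a log2 change of -0.73 (95% confidence interval -1.44 to -0.02) and a limma p of 0.0438 before and 1.00 after Benjamini-Hochberg adjustment. The unadjusted p of Psme4 was 0.0926 with median-ratio scaling, 0.0630 with quantile normalization, 0.101 without a mean trend of the variance, and 0.0697 to 0.159 when Vehicle 2, Vehicle 3, PGE2 1 or PGE2 2 was left out. Psme3, the nuclear cap PA28 gamma, read 115, 155 and 135 TPM with vehicle and 116, 174 and 129.7 TPM with PGE2, and its groups overlapped. The fitted values of the 5 genes of this list went both ways (3 higher and 2 lower, or 2 and 3 with library weights, without PGE2 2 or without Vehicle 1). Psme2, a subunit of the interferon-inducible cap, read 1.43, 2.22 and 5.38 TPM with vehicle and 6.97, 15.8 and 2.52 TPM with PGE2.

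Of the 8 assembly chaperones tested 4 were higher and 4 lower, with 2 higher without Vehicle 3. Pomp, the maturation factor of the core particle and itself a target of NRF1, was the most abundant, at 191, 199 and 150.0 TPM with vehicle and 146, 305 and 144 TPM with PGE2, with its highest value in PGE2 2. Psmd10 (gankyrin), a chaperone of the ATPase ring, read 17.9, 17.1 and 15.7 TPM with vehicle and 14.99, 1.79 and 14.6 TPM with PGE2. The groups did not overlap, the log2 change of -1.01 had an unadjusted limma p of 0.154, and it was -0.18 without PGE2 2. Psmg4 read 2.68, 2.45 and 5.16 TPM with vehicle and was listed at 0 in PGE2 2 and PGE2 3.

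In the NRF1 and NRF2 list 2 of 9 tested genes were higher and 7 lower, or 4 and 5 with median-ratio scaling or with quantile normalization. The number higher was 1 without PGE2 1, 3 without Vehicle 1, 4 without PGE2 2 or Vehicle 2, and 6 without PGE2 3. Nfe2l1, which encodes NRF1, read 26.8, 31.1 and 46.3 TPM with vehicle and 82.98, 43.03 and 19.4 TPM with PGE2, highest in PGE2 1 and lowest in PGE2 3. Its log2 change was 0.28 with an unadjusted limma p of 0.588. NRF1 is controlled largely after transcription, by release from the endoplasmic reticulum and cleavage, which these data do not measure. Maff, a small MAF partner of these factors, read 2.58, 6.42 and 2.25 TPM with vehicle and 9.24, 14.8 and 8.69 TPM with PGE2. Its groups did not overlap, with a log2 change of 1.39 (0.20 to 2.59) and a limma p of 0.0260 before and 1.00 after Benjamini-Hochberg adjustment. Without Vehicle 1, Vehicle 3 or PGE2 2 the unadjusted p of Maff was 0.0823, 0.0854 and 0.0754, and with library weights 0.0859. Sel1l, of the endoplasmic reticulum ligase complex, read 373, 401 and 426 TPM with vehicle and 106, 152 and 536 TPM with PGE2, so that PGE2 3 stood apart.

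All 11 proteasome-bound enzymes and shuttles had a lower fitted value (median log2 change -0.23), where 43.9% of all tested genes had a higher one. It was 10 of 11 with median-ratio scaling or with quantile normalization, 9 with library weights, without PGE2 3 or without Vehicle 3, and 8 without PGE2 2, and none had an unadjusted limma p under 0.05. The deubiquitinase Usp14 had the change nearest 0, at -0.01. The ligase Ube3a read 349, 267 and 341 TPM with vehicle and 117, 302 and 297 TPM with PGE2. The low value of Ube3a was in PGE2 1, and the other libraries of the groups overlapped.

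Of the ubiquitin genes and their activating enzymes 1 of 6 tested was higher (0 with library weights, 2 without PGE2 1 or PGE2 3), and of the p97 cofactors 1 of 6 (3 without Vehicle 3, 2 without any 1 other library except Vehicle 1). The polyubiquitin gene Ubb read 88.3, 84.8 and 105 TPM with vehicle and 54.4, 51.4 and 124.5 TPM with PGE2. The p97 cofactor Ufd1l, which helps to extract ubiquitinated proteins, read 29.2, 28.6 and 21.1 TPM with vehicle and 35.8, 34.4 and 48.6 TPM with PGE2, without overlap (log2 change 0.57; unadjusted p = 0.118 in the limma fit across all genes). Ubxn7 had a log2 change of -0.38.

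The ubiquitin ligases of muscle atrophy all had a higher fitted value where tested (5 of 5, or 4 of 5 with library weights or without any 1 PGE2 library), and none had an unadjusted limma p under 0.05. Fbxo32 (atrogin-1) read 0.69, 1.37 and 0.08 TPM with vehicle and 1.36, 1.37 and 1.76 TPM with PGE2, and Trim63 (MuRF1) stayed at or below 0.22 TPM. Fbxo30 read 29.2, 31.5 and 40.9 TPM with vehicle and 40.5, 44.2 and 43.9 TPM with PGE2, overlapping only through Vehicle 3. The COP9 signalosome, a complex built like the lid of the regulatory particle, had 4 higher and 5 lower genes of 9, with 2 higher without Vehicle 1 and 6 without Vehicle 3. Its subunit genes Cops3 and Cops7b had the smallest p in that list (0.177 and 0.170 before adjustment), with log2 changes of -0.43 and -0.70.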

How the data were processed

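The values are TPM per gene and library in 1 table that the authors deposited. STAR, RSEM and mm10 are the tools and build listed in the submitters' processing notes, without versions. Settings, strand use and annotation are not given there. No header names the unit, which was inferred from the values (sums of 992357 to 995645 per library). TPM keeps no depth, so no interval that needs counts is given. RNA was extracted with a Qiagen micro kit and amplified as cDNA with a NuGEN Ovation kit, per the labels' protocols. Of 43283 gene identifiers, 42782 matched GENCODE M21, which gave positions, overlaps and transcripts.

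All 31 subunit genes were among the 12781 genes that reached 1 TPM in 3 or more libraries, and these were compared on log2(TPM + 1) by limma (version 3.58.1, R 4.3.3; eBayes with trend, not robust), two-sided, with Benjamini-Hochberg adjustment over all of them and a threshold of 0.05. The design also named a count test for the case that the table held counts, which it does not. Intervals are 95% confidence intervals of that fit. Copies were found with BLAST 2.17.0 (95% identity over 200 bases). Groups and replicate numbers come from the sample titles, 3 libraries a group. No 2 libraries held identical values. Deviations from the group means correlated at -0.06 to 0.07 between same-numbered libraries and at -0.05 to 0.09 between the others. Values this small cannot show whether the libraries were paired. The numbers were not taken as pairs in the main fit.

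The members and lists were chosen with earlier results of these data known, so no test over a list and no p adjusted over a list is given. Values per library are given for the catalytic genes, the highest and lowest gene of each part, the 3 with the smallest p in each part, genes without overlap or with an unadjusted p under 0.05, the largest changes, the widest and narrowest spreads, 8 related genes set by name and up to 2 per list by p. Psma3 and, in part, other genes were added after their values were seen. Some genes that this rule names are not reported here. The fit was tested on simulated data, with 50 genes changed at each size. It recovered 0% of them at a true log2 change of 1, 24% at 2, 70% at 3 and 90% at 4. There were 8 false calls among 12781 genes. Not passing the threshold therefore does not show that a gene was unchanged. Tables and figures were made in Python 3.11.15.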

Additional observations from a re-analysis of the deposited data

How the results depend on the processing

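None of the 31 subunit genes passed limma's threshold under any of 12 alternatives with all 6 libraries or with any 1 library left out (lowest Benjamini-Hochberg adjusted p = 0.583, for Psmd13 without PGE2 1). Over all genes, 1 gene passed with a robust variance prior and 4 without a mean trend, and 0 to 1 with a library left out. The median log2 change of the 31 was -0.10 to 0.19 with a library left out. Library weights gave 9 of 31 genes higher in place of 16, and leaving out PGE2 3 gave 23. With the replicate number as a block no call changed and the median stayed 0.02; Psmd13 had an unadjusted p of 0.0274. The correlations of same-numbered libraries' deviations were -0.06, -0.04 and 0.07. Signs of values near 0 turned for 11 genes. With library weights these were Psma5 (-0.093), Psma7 (-0.094), Psmb1 (-0.035), Psmb5 (-0.15), Psmc2 (-0.032), Psmd3 (-0.10) and Psmd7 (-0.13). With median-ratio scaling they were Psma6 (0.011) and Psmd11 (0.0072), with quantile normalization Psma6 (0.015), without mitochondrial genes Psmb5 (-0.0039), and with copies added Psma3 (0.013) and Psmb3 (-0.15). With a library left out, 20 of the 31 changed sign at least once, with lowest and highest values of Psma1 -0.42 and 0.11, Psma3 -0.33 and 0.11, Psma4 -0.046 and 0.36, Psma5 -0.094 and 0.53, Psma6 -0.37 and 0.26, Psma7 -0.042 and 0.33, Psmb1 -0.14 and 0.39, Psmb3 -0.10 and 0.27, Psmb5 -0.52 and 0.41, Psmb6 -0.048 and 0.32, and of Psmc2 -0.11 and 0.34, Psmd1 -0.46 and 0.16, Psmd2 -0.56 and 0.23, Psmd3 -0.34 and 0.42, Psmd4 -0.72 and 0.036, Psmd6 -0.51 and 0.23, Psmd7 -0.21 and 0.32, Psmd11 -0.25 and 0.14, Psmd12 -0.17 and 0.052, Psmd14 -0.20 and 0.49. Psmd13 ran from 0.83 to 1.54. The causes were not tested. Alternatives that need read counts were not run.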
